A study of Mus musculus with 1753 samples.

Results

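The complement genes described here are C1ra, C1s1, C2, C3, C4b, C7, Cfb, Cfd and Serping1, 9 of the 46517 genes in a table of read counts from single fibroblasts and mural cells of mouse skeletal muscle. They were chosen by symbol, and their Ensembl identifiers were matched to the gene annotation. The series holds 1753 cells, each a sample of its own, from adult male mice of 10 to 20 weeks. The labels assign every cell to a cluster from 1 to 10 and to a strain label. C57BL6 is the inbred background strain. Acta2GFP, Cspg4dsRED and PdgfrbGFP are transgenic lines that carry a fluorescent reporter driven by the smooth muscle actin, NG2 and PDGF receptor beta genes, and the PdgfraGFP - PdgfrbGFP pool (the pool) names a pair of reporter lines and covers cells of both muscles. The methods describe pooling of soleus from 2 mice, 1 of each line. The reporters and antibodies to the PDGF receptors were used to enrich the cells, CD31-positive cells were gated out, and all lines share the C57BL6 background. Strain labels contributed unequally to the clusters, and none of the 62 cells of cluster 10 came from C57BL6 or Acta2GFP. The enzyme mix for Acta2GFP also held elastase. For the pool and part of the PdgfrbGFP cells the label also gives the muscle, soleus or gastrocnemius.

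Clusters 1, 3, 5, 6 and 8 are named endomysial, after the tissue around single muscle fibres. The study anticipates that they also hold fibroadipogenic progenitors and perivascular fibroblasts, and leaves this to further work. Clusters 2 and 9 are perimysial fibroblasts of the sheaths around fibre bundles, and cluster 4 is the paramysial group. Cluster 7 holds mural cells, the pericytes and smooth muscle cells of vessels, and cluster 10 is a further fibroblast group. The names follow the study, and the mural and fibroblast markers held in these counts. The summed level of 5 mural markers was 7050 to 10433 scaled counts in cluster 7 over strains and at most 535 elsewhere. The summed level of 5 fibroblast markers was 110.7 to 624 in cluster 7 and 5693 or more elsewhere. Mean sums of the perimysial, paramysial and cluster 10 markers were highest in the clusters so named, but the strains overlapped. Perimysial and paramysial marker sums overlapped between clusters 4 and 9, and cluster 10 marker sums between clusters 6 and 10. A scaled count is a read count after each cell was brought to 500000 counts without spike-ins, and it is the unit of levels below unless CPM is named. Total counts of a cell lay between 46097 and 1055869 (median 258251), and Cspg4dsRED cells were the shallowest (median 121646). The strain label was the replicate, so each mean ± SD is over the strains with 3 or more cells in a cluster. The labels name no animals, so the spread between strain labels may be in part technical.

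Complement is a cascade of plasma proteins that tags and lyses targets. In the classical pathway C1r and C1s (C1ra and C1s1 in the mouse) form the protease part of the C1 complex, which cleaves C4 and C2 to make a C3-cleaving enzyme. In the alternative pathway factor B (Cfb) binds cleaved C3 and is cut by factor D (Cfd), an adipocyte product also called adipsin. C7 takes part in the terminal membrane attack complex, and Serping1 encodes the C1 inhibitor, which blocks C1r and C1s. The liver is the main source of most of these proteins, and fibroblasts are known to make several of them.

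Several of the genes are neighbours in the genome (positions in GRCm38, GENCODE M21). C4b (chr17:34728380-34743882), Cfb (chr17:34856374-34862518) and C2 (chr17:34862604-34898265) lie on the minus strand of chromosome 17 in the class III region of the major histocompatibility complex, with 85 bases between Cfb and C2. C3 (chr17:57203970-57228136) is further along the same chromosome. C1ra (chr6:124512405-124523443, plus strand) and C1s1 (chr6:124530345-124542359, minus strand) are 6901 bases apart on chromosome 6. C7 is at chr15:4988762-5063740, Serping1 at chr2:84765387-84775444 and Cfd at chr10:79890853-79892655.

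Overlapping gene models bear on 3 of the genes. Of the exonic bases of Cfb, 79.5% are shared with Gm20547, a model on the same strand that joins Cfb and C2 exons, and 42.8% of those of C2 are shared with models on its own strand. Gm20547 lies wholly inside the exons of its neighbours, yet it held 177168 counts, and in 0 of 1356 cells did it exceed the sum of C2 and Cfb. Gm16567, wholly inside C1s1 on the opposite strand, held 129264 counts and exceeded C1s1 in 0 of 1689 cells. Reads in shared exons were thus counted for each overlapping model and without regard to strand, so the counts of Cfb, C2 and C1s1 can hold reads of these models and cannot be divided between them. Near-identical copies exist as well. Of the 50-base words in C1ra transcripts 48.02% occur in C1rb, 21.8% of those of C1s1 in C1s2, and 34.6% of those of C4b in C4a. The copies themselves held 166, 355 and 364 counts in all cells, beside 167768, 399043 and 67112 for C1ra, C1s1 and C4b. C3, C7, Cfd and Serping1 shared no 50-base word with another gene.

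Promoter windows from RefSeq (GRCm38.p6) were matched for 5 of the 9 genes: C1ra, C1s1, C3, C7 and Cfd. The 250 bases before each start were searched on both strands for AAANNGAAA (part of the interferon-stimulated response element), TTCNNNGAA (the STAT motif) and GGANTTTCC (part of an NF-kB motif). Matches of different motifs may overlap. These letters occur in 9.37%, 7.02% and 1.07% of 32851 promoter windows of the same length. The only match was a STAT motif in the window of C7 (chr15:5063774-5064023, minus strand), which is shown because C7 was among the genes that varied most between fibroblast clusters. The capitals mark the match, at bases -164 to -156 from the start.
C7: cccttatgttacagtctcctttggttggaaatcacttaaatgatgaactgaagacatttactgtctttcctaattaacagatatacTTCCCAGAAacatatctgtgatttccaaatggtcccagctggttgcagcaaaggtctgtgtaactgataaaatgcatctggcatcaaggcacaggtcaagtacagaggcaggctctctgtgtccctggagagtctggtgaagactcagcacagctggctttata
A match of letters is a description of the window and was not tested for binding.

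Across the clusters the genes fell into broad and restricted ones. C1ra, C1s1 and Serping1 were found in all endomysial clusters at levels within 1.71-fold of each other, whereas C2, C3, C4b, C7 and Cfb differed between endomysial clusters by 4.07-fold to 43.1-fold and were highest in clusters 5 and 8, with cluster 1 between them for C3. Cfd was close to 0 throughout. Clusters were made by the authors from these same counts, so levels by cluster are given as a description with no test. For 7 of the 8 detected genes the highest mean was in cluster 5 or 8, and for C1s1 it was in cluster 10. The share of all genes that are highest in cluster 5 or 8 was not taken, so the count is no result about complement. For C1ra, C1s1 and Serping1 the lead over the next cluster was within the spread, with overlapping strains.

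**Figure D1:**
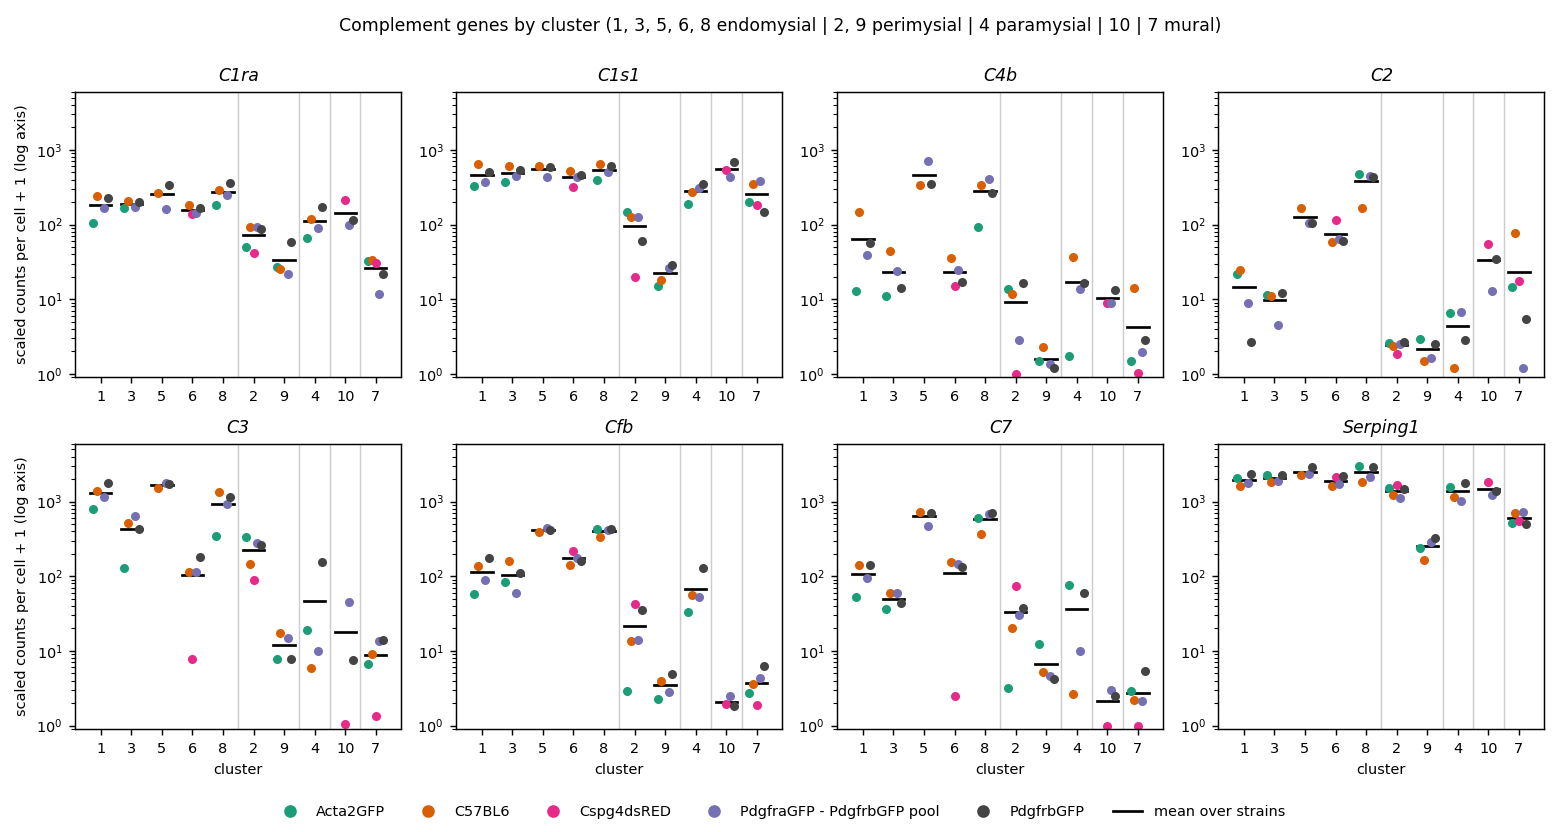
Mean scaled counts per cell, plus 1 on a log axis, for 8 complement genes by cluster. Points are strains with 3 or more cells and black lines are means over strains. C1ra, C1s1 and Serping1 are flat over the 5 endomysial clusters, while C2, C4b, C7 and Cfb are highest in clusters 5 and 8, and Cspg4dsRED lies at 1.49 for C7 in cluster 6.

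Of the classical pathway, the C1r and C1s proteases were expressed widely. C1s1 was at 433.4 to 546 scaled counts in the endomysial clusters and at 553 ± 131.2 (SD, n = 3) in cluster 10. It was lower in mural cells, at 252 ± 107.995 (n = 5), and lowest in the perimysial clusters, at 95.2 ± 53.7 (n = 5) in cluster 2 and 21.1 ± 6.55 (n = 4) in cluster 9. Neighbours in this order differed by less than the larger SD from cluster 10 down to cluster 6, and between cluster 4 and the mural cells. In mural cells the C1s1 level of PdgfrbGFP was 147.8, that of Cspg4dsRED 179, that of Acta2GFP 197, that of C57BL6 352 and that of the pool 384, a range that does not overlap that of cluster 2. C1ra was highest in cluster 8, at 268 ± 71.7 (n = 4), and lower in cluster 10, at 140.9 ± 62.7 (n = 3). Among fibroblasts it was lowest in the perimysial clusters too, at 71.8 ± 24.9 (n = 5) in cluster 2 and 31.997 ± 16.7 (n = 4) in cluster 9. Mural cells, at 25.1 ± 9.37 (n = 5), were within the spread of cluster 9.

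C4b and C2, the pair of substrates of C1s, were concentrated in few clusters. C4b was at 462 ± 208 (n = 3) in cluster 5 and 276 ± 136.6 (n = 4) in cluster 8, a difference within the spread, and at 63.2 ± 58.6 or less elsewhere. The cluster 8 values of C4b were 91.2 (Acta2GFP), 267 (PdgfrbGFP), 335 (C57BL6) and 411 (pool), so that Acta2GFP lay lowest. C2 was highest in cluster 8, at 379 ± 145 (n = 4), followed by cluster 5 at 123.6 ± 35.5 (n = 3) and cluster 6 at 73.7 ± 27.3 (n = 4). The cluster 8 values of C2 were 163 (C57BL6), 430.1 (PdgfrbGFP), 443.5 (pool) and 477 (Acta2GFP), so that C57BL6 lay well under the other 3 and within the range of cluster 5. Clusters 1 and 3, which are endomysial too, held only 13.4 ± 10.3 and 8.79 ± 3.60 (n = 4 each).

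C3, the protein on which the pathways converge, followed a different order. It was at 1672 ± 150.2 (n = 3) in cluster 5, 1285 ± 421 (n = 4) in cluster 1 and 938 ± 432 (n = 4) in cluster 8. These neighbours differed by less than their spread. Cluster 3 held 430.0 ± 219 (n = 4) and cluster 2 held 221 ± 99.8 (n = 5), and the endomysial cluster 6 had 103.2 ± 71.2 (n = 4), with overlapping strains. Cluster 9, mural cells and cluster 10 were at 10.9 ± 4.93, 7.87 ± 5.204 and 16.7 ± 23.4. Cluster 1 thus had high C3 with lower mean C2 and C4b than clusters 5 and 8. Its C57BL6 cells nevertheless held more C4b than the Acta2GFP cells of cluster 8. Cluster 6 had the lowest mean C3 of the endomysial clusters, with mean C2 below clusters 5 and 8 and above clusters 1 and 3. Mean C3 in cluster 6 was still no lower than mean C2, though C2 was the higher of the pair in Cspg4dsRED.

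Cfb, the partner of C3 in the alternative pathway, was at 418 ± 21.9 (n = 3) in cluster 5 and 406 ± 44.5 (n = 4) in cluster 8. The cluster 8 values of Cfb were 339 (C57BL6), 422 (pool), 429.9 (Acta2GFP) and 431 (PdgfrbGFP), so that C57BL6 lay below the other 3. Cluster 6 held 173 ± 34.6 (n = 4), with no overlap with cluster 8, and clusters 1 and 3 held 114.2 ± 52.01 and 102.8 ± 43.6. The gene was at 2.76 ± 1.69 in mural cells, 2.48 ± 1.20 in cluster 9 and 1.07 ± 0.349 in cluster 10. Cfd, whose product cuts factor B, had 283 counts in 7 of 1753 cells, and its highest mean was 1.57 in cluster 6.

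C7, of the terminal pathway, set clusters 5 and 8 furthest apart from the rest. Its level was 632 ± 142 (n = 3) in cluster 5 and 590 ± 159 (n = 4) in cluster 8, and every strain there lay above every strain elsewhere. The cluster 8 values of C7 were 363 (C57BL6), 597 (Acta2GFP), 691 (pool) and 707 (PdgfrbGFP). Cluster 6 was at 108.5 ± 71.99 (n = 4) with a wide gap between strains. There C7 was at 156 (C57BL6), 143 (pool) and 132.7 (PdgfrbGFP) but at 1.49 in the 46 cells of Cspg4dsRED. C3 in the same Cspg4dsRED cells was at 6.88, beside 113.6 to 179 in the other 3 strains, while C2 and Cfb were higher in them than in any other strain, at 114.5 and 220.3. Cspg4dsRED had the lowest median depth, and the part of depth in the difference was not tested.

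Serping1 was the most widely detected gene, in 1751 of 1753 cells. It was at 1914 to 2512 in the endomysial clusters, which differed by less than their spread in order, and at 1481 ± 324 (n = 3), 1398 ± 225 (n = 5) and 1376 ± 355 (n = 4) in clusters 10, 2 and 4. Mural cells were lower, at 599 ± 106.6 (n = 5), and cluster 9 lower still, at 251 ± 67.8 (n = 4), and in neither did any strain overlap with the cluster above. Per kilobase of exon, a scale on which genes can be compared, Serping1 led in endomysial cells with 926 ± 136.3 scaled counts. C1s1 followed at 145.2 ± 37.7 and C3 at 104.03 ± 69.7. Cfb, C1ra and C7 lay at 67.7, 65.3 and 61.2, within their spread, and C2 and C4b at 29.2 and 13.2 (n = 5 each).

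Shares of cells gave the same picture. A gene was called detected in a cell at 100 or more scaled counts. In cluster 8, C7 was detected in 84.8% ± 15.8 of cells, Cfb in 68.4% ± 11.1, C2 in 66.9% ± 15.8 and C3 in 63.6% ± 25.6 (SD over 4 strains). In cluster 3, the largest endomysial cluster, the shares were 16.5% ± 4.48 for C7, 22.9% ± 6.89 for Cfb and 3.02% ± 1.68 for C2, but 50.1% ± 17.6 for C3. C1s1 was detected in 91.6% ± 7.25 of cluster 3 cells and 96.8% ± 2.74 of cluster 8 cells. None of 187 mural cells passed this level for C3, C7, Cfb or C4b, which allows a share of up to 1.60% by counting error.

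**Figure D2:**
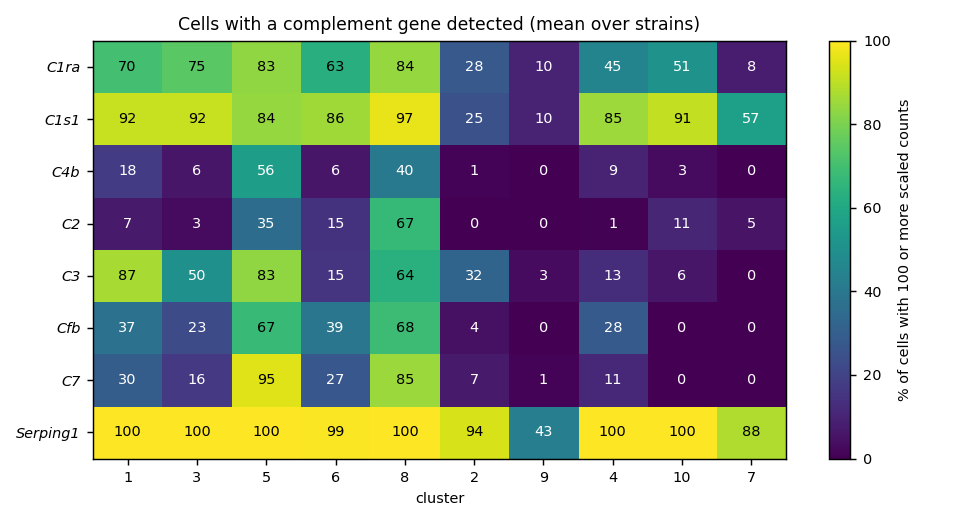
Percent of cells with 100 or more scaled counts of each gene, as the mean over strains, by cluster. Serping1 was detected in nearly all cells outside clusters 7 and 9, and C7 was detected in 84.8% of cluster 8 cells and 0% of mural and cluster 10 cells.

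The genes also met in the same cells of clusters 5 and 8. Of the 8 genes, a cluster 8 cell held a mean of 6.05 ± 0.540 (n = 4 strains) at the detection level and a cluster 5 cell 6.04 ± 0.356 (n = 3). The mean was 4.40 ± 0.645 in cluster 1, 3.65 ± 0.315 in cluster 3, 3.51 ± 0.617 in cluster 6 and 2.62 ± 0.130 in cluster 10. It was 2.93 ± 0.740 in cluster 4, 1.91 ± 0.305 in cluster 2, 1.58 ± 0.230 in mural cells and 0.661 ± 0.253 in cluster 9. All 8 were detected together in 44 of the 253 cluster 8 cells and 7 of the 31 cluster 5 cells, in 3 further cells among clusters 1, 3 and 6, and in none of the others. Within a cluster and strain, pairs of genes were only weakly related from cell to cell in the median. The highest median Pearson r was 0.28, for C7 with Serping1 over 21 cluster and strain units of 20 or more cells, where cells share a plate and strain. Single units varied widely, from -0.47 for C2 with Serping1 to 0.67 for C1ra with Serping1. The correlation of Serping1 with depth had a median r of -0.36 over 23 units.

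The comparisons between classes were made on counts summed over cells of a class and strain and tested with edgeR, with the strain as a block. The classes come from clusters of these counts, so the tests describe the classes. The 3 comparisons within fibroblasts share the endomysial sums, and the fibroblast sums of the mural comparison contain them too. Cfd did not pass the filter on low counts in these 4 comparisons, which leaves 8 of the 9 genes tested.

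Mural cells had lower expression of 6 genes than fibroblasts (edgeR, adjusted p under 0.05), against 9.27% of 13880 genes called lower and 6.15% called higher. C3 was at 8.33, 14.3, 0.567, 18.7 and 21.5 CPM (counts of the sum, scaled to its depth) in the mural cells of Acta2GFP, C57BL6, Cspg4dsRED, the pool and PdgfrbGFP, and at 335, 1239, 67.6, 926 and 1307 in their fibroblasts. The groups do not overlap. The log2 fold change of C3 was -5.86 ± 0.33 (SE, edgeR adjusted p = 7.15e-05). C7, Cfb and C4b were lower by similar sizes, at -6.38 ± 0.54, -5.84 ± 0.48 and -5.18 ± 0.73 (edgeR adjusted p = 0.000234, 0.000202 and 0.00219). C1ra, at -2.78 ± 0.34, and Serping1, at -1.43 ± 0.22, were lower too (adjusted p = 0.00114 and 0.00325). All 6 were lower in 5 of 5 strains. C1s1 did not pass, with -0.52 ± 0.30 (adjusted p = 0.310) and a higher value in the mural cells of C57BL6. The median was -4.07 over the 8 genes and -0.46 over all genes tested.

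C2 did not pass in mural cells either (-2.97 ± 0.98, adjusted p = 0.0814), and here 1 strain stood apart. It was at 75.7 scaled counts in the 9 mural cells of C57BL6 and at 0.208 to 16.4 in the other 4 strains. The same 9 cells had a summed level of 10 macrophage and immune markers of 768, against 0.437 to 8.18 in the other strains, with all 10 markers present. The values lay in different cells, however. C2 was at 487 and 185 in 2 cells with no macrophage marker count, while the 4 cells with macrophage sums of 841 to 2543 had C2 at 4.49 or less and C4b at 7.19 to 59.1. Those 4 cells also held C1qa, a macrophage product, at 107.8 to 375, and mural markers at 5271 to 11671. Without C57BL6 the change of C2 was -3.73 with an adjusted p of 0.0233.

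Perimysial cells had lower expression of 5 genes than endomysial cells, against 3.26% of 14121 genes called lower and 2.32% called higher. C2 showed the largest difference. It was at 2.21, 2.39, 1.44, 1.17 and 2.57 CPM in the perimysial cells of Acta2GFP, C57BL6, Cspg4dsRED, the pool and PdgfrbGFP, and at 206, 166, 319.6, 131.7 and 294 in their endomysial cells. The groups lie far apart, with a log2 fold change of -6.64 ± 0.32 (edgeR adjusted p = 0.000110). Cfb changed by -4.09 ± 0.69, C4b by -3.66 ± 0.70, C1s1 by -2.76 ± 0.20 and C1ra by -1.68 ± 0.23 (adjusted p = 0.0143, 0.0231, 0.000436 and 0.00536). The classical pathway genes C1ra, C1s1, C2 and C4b were thus all lower in perimysial cells, in 5 of 5 strains each. The median over the 8 genes was -2.48, and -0.19 over all genes.

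C3, C7 and Serping1 did not pass between these classes. C3 had -1.22 ± 0.35 (adjusted p = 0.108), C7 -2.20 ± 1.02 (0.370) and Serping1 -0.83 ± 0.20 (0.0603). For C3 and C7 the direction was opposite in Cspg4dsRED alone. The classes held different clusters in each strain: 46 of the 51 endomysial cells of Cspg4dsRED were of cluster 6, where C3 was at 6.88 to 179 scaled counts over strains, and 23 of the 35 perimysial cells of Acta2GFP were of cluster 9. The part of this mix in the class values was not tested. In Cspg4dsRED C7 was at 69.5 CPM in perimysial and 5.85 in endomysial cells, and C3 at 122.3 and 112.02. Without Cspg4dsRED all 8 genes were called lower, C7 at -2.88 (adjusted p = 0.000554) and C3 at -1.54 (adjusted p = 0.00887). The calls over all genes rose as well, to 751 lower of 15634 tested and to 9.06% in either direction. Without C57BL6 or without the pool, 3 genes remained past the threshold, and Cfb and C4b did not. There 2.86% and 3.10% of all genes were called.

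Paramysial cells gave no call among the 8 genes, where 0.0206% of 14533 genes were called lower and 0.0757% higher. The fitted values were nonetheless large and below 0. C3 had -5.07 ± 1.00 (adjusted p = 0.152), C2 -4.88 ± 0.93 (0.126) and C7 -3.88 ± 0.80 (0.171). C3 was at 53.5, 8.70, 8.16 and 246 CPM in the paramysial cells of Acta2GFP, C57BL6, the pool and PdgfrbGFP, and at 447, 1759, 1275 and 1474 in their endomysial cells. The groups do not overlap. At an unadjusted p under 0.05 the comparison called 981 genes. DESeq2 called 4 of the 8 genes (C2, C3, C4b and C7), beside 5.42% of all genes tested, in either direction. Without Acta2GFP 3 of the 8 were called (C2, C3 and C7), beside 0.392% of all genes. Without C57BL6 2 were called (C2 and C7), beside 0.201%, and without PdgfrbGFP 1 (Serping1), beside 0.075%. The median depth was 595321 counts in paramysial and 276880 in endomysial cells, and the part of depth was not tested. The paramysial sums rest on 46 cells of the pool but on only 3 to 6 cells of the other strains. Of the 46 cells 45 were from soleus, while the endomysial cells of the pool were mostly from gastrocnemius (194 cells), so muscle and plate differed between the sides there, and their part in the values was not tested. The median over all genes was -0.86 in this comparison (-0.18 without the strain as a block), and -2.16 over the 8 genes.

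Cluster 10 had lower expression of 2 genes than endomysial cells, Cfb and C7, against 0.177% of 12455 genes called lower and 0.265% called higher. Cfb was at 1.30, 2.05 and 1.46 CPM in cluster 10 of Cspg4dsRED, the pool and PdgfrbGFP, and at 466, 282 and 468 in their endomysial cells. The change was -7.80 ± 0.52 (edgeR adjusted p = 0.00853). C7 was at 0, 3.67 and 2.93 against 5.85, 311 and 552, with -6.96 ± 0.64 (adjusted p = 0.0160). C3 had -6.11 ± 0.85 and narrowly missed the threshold (adjusted p = 0.0540). C2, at -2.26 ± 0.46, and C4b, at -1.85 ± 0.97, did not pass (edgeR adjusted p = 0.175 and 0.732), and C2 was lower in 3 of 3 strains. C1s1, C1ra and Serping1 had smaller fitted changes, at 0.48 ± 0.27, -0.46 ± 0.41 and -0.42 ± 0.22 (edgeR adjusted p = 0.767, 0.872 and 0.725). With 3 strains this does not show equal levels. Serping1 was lower in 3 of 3 strains, and C1ra was lower in the pool and PdgfrbGFP but higher in Cspg4dsRED. Without PdgfrbGFP, which gives 8 of the cluster 10 cells, no gene of the table was called by edgeR, and 803 had an unadjusted p under 0.05. Without Cspg4dsRED 4 of the 8 genes were called (C2, C3, C7 and Cfb), beside 1.25% of all genes tested, in either direction. Without the pool 3 were called (C3, C7 and Cfb), beside 0.903%.

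**Figure D3:**
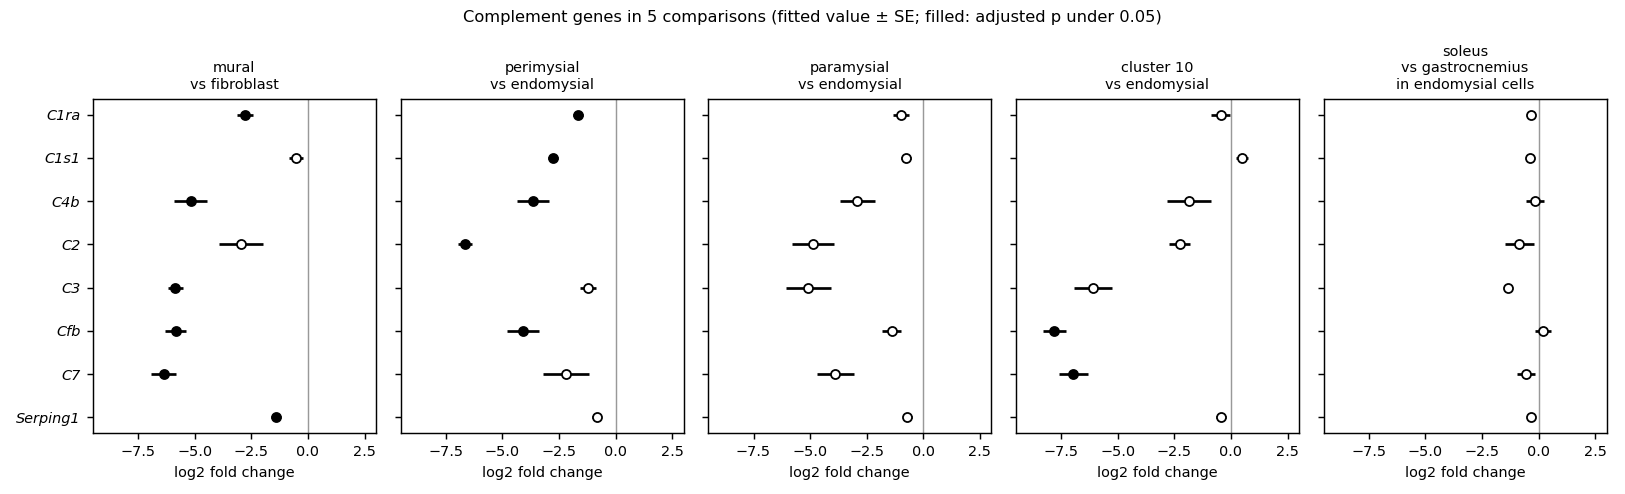
Fitted log2 fold changes with their SE for 8 complement genes in 5 comparisons, first group minus second. Filled points had an edgeR adjusted p under 0.05. All points lie below 0 except C1s1 in cluster 10 and Cfb in soleus, and 6, 5, 0, 2 and 0 genes are filled from left to right.

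The muscles could be compared in endomysial cells of the pool and of PdgfrbGFP on sums per strain and muscle, where all 9 genes were tested and none passed. C3 was lower in soleus in both strains. Its scaled counts were 848 in gastrocnemius and 385 in soleus of the pool, and 1428 and 588 in those of PdgfrbGFP. The log2 fold change was -1.34 ± 0.15, with an edgeR adjusted p of 0.967 that does not pass. No gene of the table passed there (0% of 16337 called), while 807 genes (4.94%) had an unadjusted p under 0.05 and DESeq2 called 0.704%. By DESeq2 C3 was the only called member, at -1.32 ± 0.23 (adjusted p = 1.54e-05). In the pool each muscle was on its own plate, so muscle and plate cannot be told apart there.

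Clusters took different shares of the endomysial cells in the muscles, so the levels were also taken within cluster 3. There C3 went from 815 to 231 from gastrocnemius to soleus of the pool, and from 884 to 296 for PdgfrbGFP. Its change there was -1.80 ± 0.24 (edgeR adjusted p = 0.9999, unadjusted p = 0.000481). In cluster 8, by contrast, C3 was at 933 and 923 (pool) and at 1705 and 1366 (PdgfrbGFP). Whether the muscle difference of clusters 3 and 8 itself differs was not tested.

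The other genes were less uniform between the muscles. Serping1, C1s1 and C1ra were slightly lower in soleus in both strains, with fitted changes of -0.34 ± 0.14, -0.40 ± 0.15 and -0.35 ± 0.18. C2, C4b, C7 and Cfb were higher in soleus in the pool and lower in PdgfrbGFP. C2, for example, went from 54.2 in gastrocnemius to 69.2 in soleus in the pool, and from 275 to 81.2 in PdgfrbGFP. Cluster 8, where C2, C4b, C7 and Cfb were high, made up 41.96% of endomysial gastrocnemius cells and 28.9% of soleus cells in PdgfrbGFP, but 8.76% and 12.04% in the pool. In cluster 3 alone Cfb was higher in soleus in both strains, at 47.1 and 87.2 (pool) and 105.2 and 174 (PdgfrbGFP). That change did not pass (0.52 ± 0.27, edgeR adjusted p = 0.9999).

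**Figure D4:**
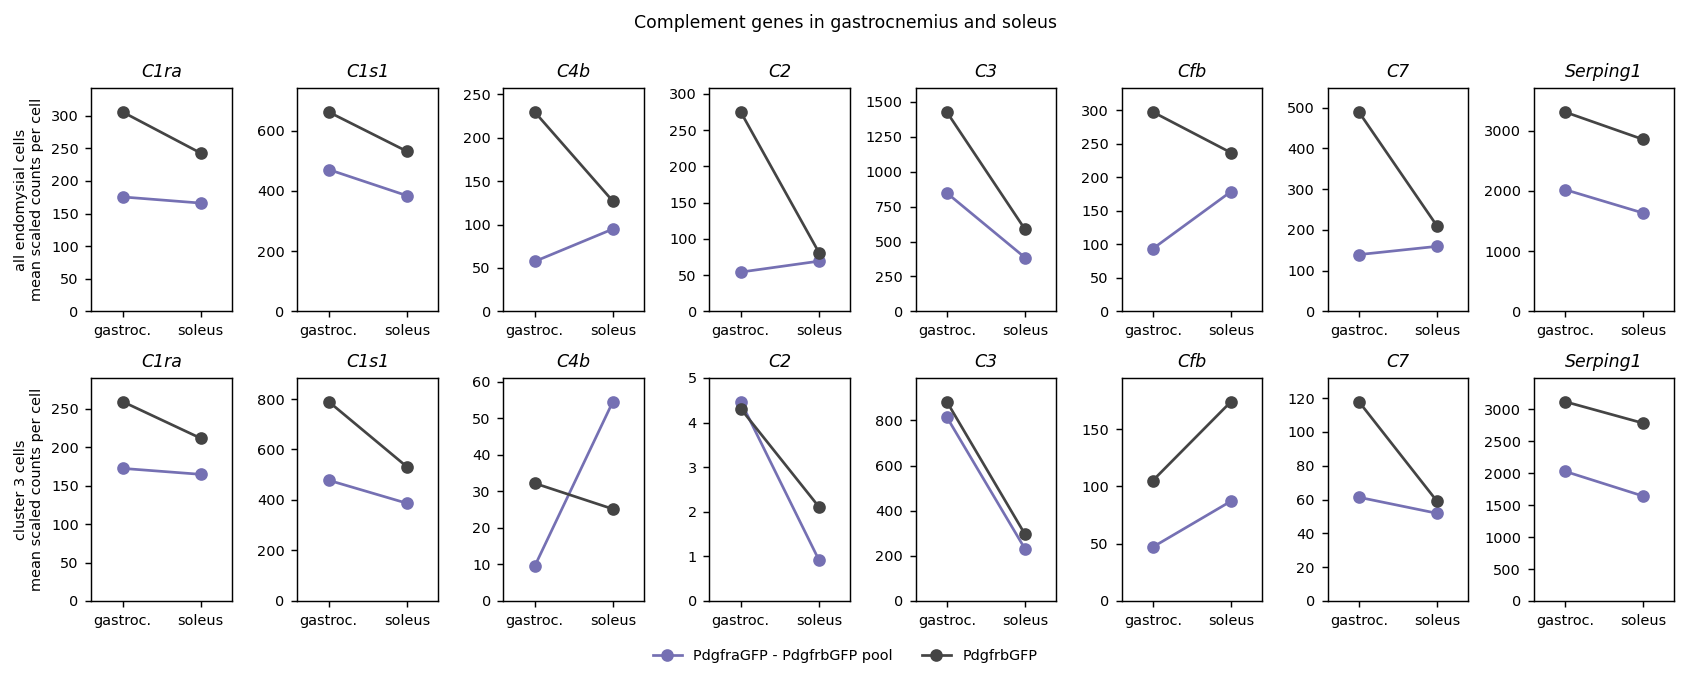
Mean scaled counts per cell in gastrocnemius and soleus, for all endomysial cells (top) and cluster 3 cells (bottom), with a line for each of 2 strains. C3 falls from 848 to 385 and from 1428 to 588 in the top row, and lines of opposite slope are seen for C2, C4b, C7 and Cfb there.

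Of the 48 other genes of the complement lists (recognition molecules, alternative and terminal pathway, regulators and receptors), 15 were measured well enough to be tested in the mural comparison and 14 in the perimysial one. Mural cells had higher levels of Cd59a, which blocks the membrane attack complex, at 4.08 ± 0.56 (edgeR adjusted p = 0.00187), and of Cd93 (4.71 ± 1.29, adjusted p = 0.0400). The receptors, Cd93 among them, summed to only 3.35 to 76.04 scaled counts in mural cells over strains. Endothelial markers summed to 9.69 to 227 there, and the C57BL6 mural cells held the macrophage markers described above. The part of such signal in Cd93 was not tested. Mural cells had lower levels of Cd55, which accelerates the decay of C3-cleaving enzymes (-6.48 ± 0.80, edgeR adjusted p = 0.00114), of the scavenger collectin Colec12 and of Masp1. In perimysial cells Cd55 (-4.70 ± 0.71, adjusted p = 0.00881), Masp1 and vitronectin (Vtn) were lower, and no gene was higher. In cluster 10 and paramysial cells, where 10 and 15 were tested, no gene was called. The median change of the tested genes was -0.65 in mural and -1.07 in perimysial cells, beside -0.46 and -0.19 over all genes, of which 9.27% and 3.26% were called lower.

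The other genes of the terminal pathway were hardly present. C6 and C8g had means of at most 1.78 scaled counts in any class, and Hc (C5) of at most 2.66, while C8a, C8b and C9 were near 0. The C1q chains were found at 17.3 to 20.9 in mural cells, where C57BL6 held the macrophage markers described above. In other classes the C1q chains were at 0.346 or less. The list of classical and lectin pathway genes summed to 283 scaled counts in cluster 9. There C1ra was at 31.997 and C1s1 at 21.1, with C2 and C4b lower. Other genes of that list were thus present, and their single levels are not given here. Of the fluid-phase regulators, clusterin (Clu) was at 419 ± 489 in perimysial cells, and Vtn at 243 ± 308 in mural cells and 239 ± 88.8 in cluster 10.

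Interferons are known inducers of several complement genes, and 20 interferon response genes were followed beside them. Their summed level was 306 to 401 scaled counts in endomysial, 124.8 to 272 in perimysial and 62.01 to 279.6 in mural cells over strains. In mural cells 18 were tested, of which Irf1, Ifit2 and Gbp3 were lower. In perimysial cells 16 were tested, of which Usp18 and Gbp2 were lower. Over all genes 9.27% and 3.26% were called lower. None of the 20 was called higher in these comparisons, and their median changes were -2.87 and -2.03, beside -0.46 and -0.19 over all genes. Within the endomysial clusters their mean summed level ran from 311 in cluster 6 to 436 in cluster 1, with overlapping strains. Clusters 5 and 8, where C2, C4b, C7 and Cfb were highest, lay between these values. The part of the interferon response genes in the levels of the complement genes was not tested.

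The genes with the most similar pattern over 32 sums per strain and cluster were sought among 4412 genes with a mean of 50 or more CPM. C1ra was closest to Fgf7 (Pearson r = 0.92), Pdgfra (0.88) and Trip10 (0.88). C3 was closest to Pcolce2 (0.92), Galnt15 (0.91) and Prdx6 (0.88), and C7 to Galnt15 (0.89), Cfb (0.84) and C3 (0.83). C4b was closest to Ifi205 (0.84), Col14a1 (0.84) and C1ra (0.83), and Serping1 to Lbp (0.92), Tnxb (0.87) and Gsn (0.87). For Cfb and C2 the first gene was the overlapping model Gm20547 (0.93 and 0.82), followed by Ly6c1 (0.89) and Vsir (0.88) for Cfb and by Gstm2 (0.77) and Osr1 (0.74) for C2. For C1s1 it was the antisense model Gm16567 (0.996), then Gstt1 (0.91) and Gstm2 (0.90). The sums share strains and plates, and these values are a description.

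Markers of cells outside the sort were measured as well. Over strains and clusters the summed level of 10 macrophage and immune markers was 82.7 or less outside the mural cells of C57BL6. The summed level of 7 endothelial markers was at most 229, of 5 Schwann cell markers at most 44.4 and of 7 muscle markers at most 332. The 7 adipocyte markers summed to as much as 725, and Lpl held 345733 of their counts. Of the defining markers, Adipoq had a count in 1 cell, the leukocyte gene Ptprc in 25 and Pecam1, which encodes CD31, in 998 of 1753 cells, and Cidec and Lep had 0 counts. The endothelial sums were of the size of several complement gene levels, at 179 in cluster 1 beside 63.2 for C4b, and their part in the results was not tested. Endomysial cells of cluster 8 held macrophage sums of 0 to 22.1, beside their C2, C4b, C7 and Cfb levels.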

How the data were processed

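Sorted single cells were profiled by Smart-seq2, a full-length method for polyadenylated RNA without molecular identifiers. The authors deposited raw counts of reads for every gene in every cell. Per the labels and the methods, reads were demultiplexed with bcl2fastq, mapped to GRCm38 (mm10) with TopHat2 and Bowtie, and counted with featureCounts. Annotation release and strand setting are not given in the sources used here. Of 1754 columns, 1753 matched a labelled cell and 1 was left out. Identical columns numbered 0. Spike-ins took 1.31% of counts and were left out. Identifiers were matched to GENCODE M21 (46005 of 46517). No doublet caller was run, since the study's methods state that cells with very many genes, or with endothelial or immune signatures, were removed. Such signal remained nonetheless. Macrophage markers were found in mural cells of C57BL6, and Pecam1 had a count in 998 of 1753 cells.

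Cells were scaled to 500000 counts for levels, with detection at 100 or more scaled counts. Counting intervals and limits use 3 counts for a count of 0 and cover counting error only, since PCR reads are not independent molecules. Raw counts were summed per strain and class (3 or more cells) and tested with edgeR 4.0.16 in R 4.3.3 (TMM, filterByExpr, quasi-likelihood test, strain as a block, Benjamini-Hochberg over all genes tested). The SE given with an edgeR change was derived as the size of the change over the square root of its F statistic. DESeq2 1.42.0 was an alternative. The strain label pairs the sums: deviations from class means of the same strain correlated at 0.12 to 0.50 in every comparison. Whether the pool and PdgfrbGFP share a mouse is not known. The scripts were tested on simulated data.

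Members and lists were chosen with earlier results of these data known. All 9 members are named, other complement genes where called or highest, and for each member the 3 genes with the highest correlation. For promoters 3 motifs were fixed. Alternatives were another normalization, no filter, no block, cells weighted alike, sums per plate, 10 or more cells, leaving out strains, and other cell or detection limits.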

Additional observations from a re-analysis of the deposited data

Results flagged for a closer look

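Levels of 8 complement genes were checked for a strain far from the others in 64 groups of 4 or 5 strains, with Dixon's criterion. Of these, 10 were flagged. The criterion flags about 1 in 20 groups of independent normal values. The levels were not logged, some lay near 0, and groups share strains and cells, so the rate does not apply and the count is a description. Cspg4dsRED stood apart in cluster 6, with C2 at 114.5 scaled counts (others 58.1 to 63.8) and C7 at 1.49 (others 132.7 to 156). C57BL6 stood apart in cluster 8, with C2 at 163 (others 430.1 to 477) and Cfb at 339 (others 422 to 431). In mural cells C57BL6 was highest for C2, at 75.7 (others 0.208 to 16.4), and for C4b, at 12.9 (others 0.0356 to 1.86). In cluster 9 PdgfrbGFP was highest for C1ra, at 56.9 (others 20.8 to 25.6), and Acta2GFP for C7, at 11.3 (others 3.17 to 4.24). In cluster 3 the pool was lowest for C2, at 3.44 (others 10.0 to 11.2). In cluster 4 PdgfrbGFP was highest for C3, at 153 in 4 cells (others 4.82 to 18.01).

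In endomysial cells 4 genes differed between soleus and gastrocnemius in opposite directions in the pool and in PdgfrbGFP, and the difference between the strains was not tested. The log2 ratio of soleus over gastrocnemius was 0.35 in the pool and -1.75 in PdgfrbGFP for C2, 0.71 and -0.85 for C4b, 0.19 and -1.22 for C7, and 0.93 and -0.33 for Cfb.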

How the results depend on the processing

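Over the alternatives, 359 fold changes of the 8 complement genes kept their direction and call, 30 gained a call, 9 lost one and 2 changed direction. The last were Cfb in the muscle comparison, at -0.069 with no replicate block, and C4b, at 1.04 in cluster 3 only, both not called. The mural comparison called 15.4% of genes tested and 6 members, with 31.2% by DESeq2 and 8.91% (without PdgfrbGFP) to 16.2% without single strains (6 to 7 members). The perimysial one called 5.57% and 5 members, with 14.6% by DESeq2, 9.48% by sums per plate, and 2.86% (without C57BL6) to 9.06% (without Cspg4dsRED) without single strains (3 to 8 members). The paramysial one called 0.0963% and 0 members, with 5.42% and 4 members by DESeq2 (40 genes higher and 747 lower, against 11 and 3 by edgeR), 0.182% and 1 member by sums per plate, and 0.0750% to 0.392% and 0 to 3 members without single strains. The cluster 10 one called 0.442% and 2 members, with 8.07% and 4 by DESeq2, 0.970% and 4 with no filter, 0% and 0 with 10 or more cells, 0.918% by sums per plate, and 0% to 1.25% and 0 to 4 members without single strains. The muscle comparison called 0% and 0 members, with 0.704% and 1 member by DESeq2. Leaving out a strain there left no residual degrees of freedom, and it was not run. With 10 or more cells the paramysial comparison had too few strains to be fitted. The cause of these changes was not tested.

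Without the strain as a replicate block, the comparisons called 15.4%, 4.68%, 0.0550%, 0.345% and 0% of genes and 6, 5, 0, 1 and 0 members, in the order above, and C7 in cluster 10 was the member that lost its call. The median change over all genes was then 0.020 (mural), -0.038 (perimysial), -0.18 (paramysial), -0.058 (cluster 10) and -0.0034 (muscle), against -0.46, -0.19, -0.86, -0.41 and -0.02 with it. RLE normalization moved the median of all genes by more than 0.1 only in cluster 10, from -0.41 to -0.27, and no member changed direction under it. The number of genes highest in cluster 5 or 8 was 7 to 8 of 8 under all alternatives run, and 7 were detected in 50% or more of cluster 8 cells under both other detection limits, thinning included. The matching shares over all genes were not taken. Depth limits what can be said of genes near 0 scaled counts, and small numbers of cells limit clusters 4, 5 and 10.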
